A study of Homo sapiens with 4 samples.

Results

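The regions described are the H3K36me2 peaks of MV4;11 cells on chromosomes 1 to 22 and X. All peaks listed there were taken, 1359 from cells kept for 4 days in 0.25% DMSO, the vehicle, and 634 from cells given 5 µM AS-99 for 4 days. Together they are 1993 of the 6948 peaks listed in the 4 libraries of the series. The other pair of libraries was made with an antibody against ASH1L under the same treatments, with 3073 DMSO and 1812 AS-99 peaks on the same chromosomes. MV4;11 is a human acute leukemia cell line with a rearranged MLL1 gene, and AS-99 is a small molecule inhibitor of ASH1L. CUT&RUN uses an antibody to bring a nuclease to its target in permeabilised cells, and the released DNA fragments are sequenced. A DMSO peak was called kept when an AS-99 H3K36me2 peak overlapped it by at least 1 bp, and lost otherwise. An AS-99 peak without a DMSO H3K36me2 counterpart was called new. Each treatment had 1 library, so differences could not be checked between replicates and no test across samples was run. Intervals are at 95% and take in only counting error or the variation among peaks.

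Dimethylation of lysine 36 on histone H3 is laid down by the methyltransferases NSD1, NSD2, NSD3 and ASH1L and is removed by KDM2A and KDM2B. The mark is known for broad domains over gene bodies and intergenic sequence, and proteins with a PWWP domain can read it. ASH1L is a trithorax group protein that works together with MLL1 at HOX genes in blood stem cells and in leukemia with MLL1 rearrangements. The question here was which genes and which kinds of sequence lay under the H3K36me2 peaks that were lost, kept or new after ASH1L inhibition. The lists carry no expression values, so the cell line could not be checked by marker genes. The listed peaks were narrow for a mark of this kind, with a median length of 349 bp among lost, 387.5 bp among kept and 318 bp among new peaks, close to the fragment sizes of 288 bp (DMSO) and 269 bp (AS-99).

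Reference sequence around a few summits is shown to let the kinds of sequence under the peaks be read: intronic sequence with few CpG, CpG-rich gene starts, and the tandem repeats found mainly at kept peaks. All are from the plus strand of GRCh37, which has the coordinates of hg19. In the first 6, capitals mark each CpG. The lost ATG5 peak shared the highest pileup among lost peaks in genes away from assembly gaps, and its window (chr6:106612101-106612300) held 2 CpG. The windows of the lost (chr21:36355766-36355965), kept (chr21:37110349-37110548) and new (chr21:36863951-36864150) RUNX1 peaks held 0, 2 and 0 CpG. Among peaks at gene starts with at least 10 CpG and no exon in the window, the highest lost one was beside ELL (chr19:18633159-18633358) with 14 CpG and the highest new one beside EGLN2 (chr19:41304110-41304309) with 13 CpG. In the kept peak on chromosome 16 (chr16:46389871-46390070), capitals mark the 13 copies of GGAAT or its reverse complement ATTCC. In the kept peak on chromosome 7 (chr7:61968889-61969188), capitals mark the 157 of 300 bases that are identical to the base 171 positions further on.
ATG5, lost: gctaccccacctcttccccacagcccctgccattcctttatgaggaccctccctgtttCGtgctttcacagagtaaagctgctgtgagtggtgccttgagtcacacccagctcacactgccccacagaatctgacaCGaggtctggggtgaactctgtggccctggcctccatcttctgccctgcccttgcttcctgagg
RUNX1, lost: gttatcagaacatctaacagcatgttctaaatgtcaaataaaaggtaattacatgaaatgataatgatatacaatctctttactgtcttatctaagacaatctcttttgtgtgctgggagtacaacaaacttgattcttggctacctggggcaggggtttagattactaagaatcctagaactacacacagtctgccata
RUNX1, kept: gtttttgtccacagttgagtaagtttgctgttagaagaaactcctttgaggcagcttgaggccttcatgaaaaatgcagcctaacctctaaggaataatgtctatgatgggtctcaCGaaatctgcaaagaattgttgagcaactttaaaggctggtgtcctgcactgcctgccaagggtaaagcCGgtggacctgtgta
RUNX1, new: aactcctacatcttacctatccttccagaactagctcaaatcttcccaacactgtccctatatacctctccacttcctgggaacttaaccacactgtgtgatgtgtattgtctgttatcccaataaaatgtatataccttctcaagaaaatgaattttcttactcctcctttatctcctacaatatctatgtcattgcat
ELL start, lost: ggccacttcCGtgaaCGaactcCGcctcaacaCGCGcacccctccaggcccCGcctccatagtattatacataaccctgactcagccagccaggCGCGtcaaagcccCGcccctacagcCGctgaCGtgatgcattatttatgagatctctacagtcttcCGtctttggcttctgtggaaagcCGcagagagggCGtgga
EGLN2 start, new: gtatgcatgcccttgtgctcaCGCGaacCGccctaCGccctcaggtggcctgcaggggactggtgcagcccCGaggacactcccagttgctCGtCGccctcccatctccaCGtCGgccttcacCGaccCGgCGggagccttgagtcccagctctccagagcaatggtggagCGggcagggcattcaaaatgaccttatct
chromosome 16, kept: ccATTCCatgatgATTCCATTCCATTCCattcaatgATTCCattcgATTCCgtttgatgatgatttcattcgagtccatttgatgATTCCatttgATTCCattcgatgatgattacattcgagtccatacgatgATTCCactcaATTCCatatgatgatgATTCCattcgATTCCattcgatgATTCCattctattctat
chromosome 7, kept: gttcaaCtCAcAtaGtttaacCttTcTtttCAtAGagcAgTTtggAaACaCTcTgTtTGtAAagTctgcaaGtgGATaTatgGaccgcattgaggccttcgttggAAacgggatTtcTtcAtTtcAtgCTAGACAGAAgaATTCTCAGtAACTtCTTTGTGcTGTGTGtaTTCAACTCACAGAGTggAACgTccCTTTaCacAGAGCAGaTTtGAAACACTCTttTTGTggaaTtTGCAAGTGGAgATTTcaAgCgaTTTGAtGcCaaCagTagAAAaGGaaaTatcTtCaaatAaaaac

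Of the 1359 DMSO peaks, 1241 were lost, or 91.3%, and 118 were kept. Of the 634 AS-99 peaks, 516 were new, or 81.4%. The kept peaks made 118 pairs matched 1 to 1. The pileup, which counts the fragments over a peak's summit, was divided by the library's fragments after filtering, which were 15584143 with DMSO and 13208636 with AS-99. The scaled value is given per 1000000 of these fragments (FPM). No spike-in entered this scaling, so a change shared by all regions would not show in it. Lost peaks had a median pileup of 18 fragments (range 10 to 49), or 1.16 FPM. New peaks had a median of 14 fragments (9 to 109), or 1.06 FPM. Kept peaks were the highest class, with a median of 23 fragments in the DMSO library (12 to 2909), or 1.48 FPM. The fold enrichment over background had a median of 4.40 (4.34 to 4.45) at lost peaks and 5.01 (4.93 to 5.10) at new peaks. The median background was 3.36 fragments at lost peaks and 1.99 at new peaks, in counts not scaled to library size. No control was used, so this background comes from the same library and can include H3K36me2 signal around a peak. If lost regions had kept their DMSO pileup and background per fragment, 1173 of the 1241, or 94.5% (93.1% to 95.7%), would have reached the lowest −log10 p listed with AS-99, which was 5.53. The share was 98.3% for kept peaks, and 100% for new peaks scaled to the DMSO library. That 100% was largely fixed in advance, since new peaks already passed 5.53, the lowest DMSO value was 5.35, and they were scaled up. The calculation took pileups from peaks selected by being listed and added no counting error. It therefore cannot say how many unchanged regions would have gone unlisted. A lost peak is a region that was not listed with AS-99, which is not evidence that the mark was missing from it.

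**Figure D1:**
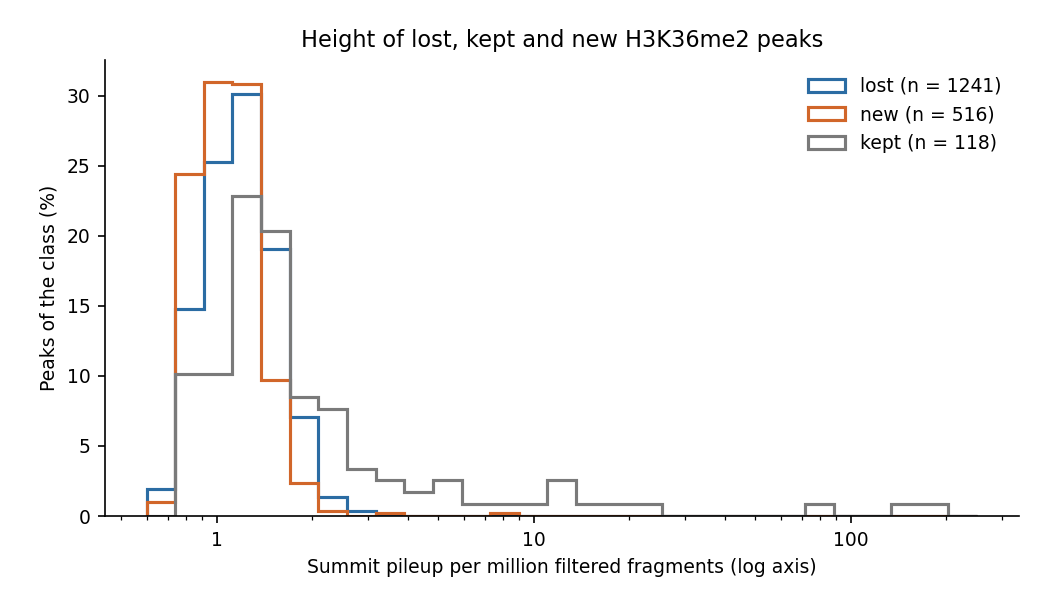
Share of lost (n = 1241), new (n = 516) and kept (n = 118) H3K36me2 peaks at each summit pileup in FPM, on a log axis, with the DMSO pileup for lost and kept peaks and the AS-99 pileup for new ones. Lost and new peaks lie mostly around the medians of 1.16 and 1.06 FPM, and the peaks above 10 FPM are kept ones.

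Lost and new peaks lay in genes about equally often, while fewer kept peaks did. The summit lay in a protein-coding gene for 644 of 1241 lost peaks, or 51.9% (49.1% to 54.7%), for 285 of 516 new peaks, or 55.2% (50.8% to 59.6%), and for 48 of 118 kept peaks, or 40.7% (31.7% to 50.1%). Such genes cover 45.8% of the determined bases of these chromosomes. The new minus lost difference was 3.34 percentage points with a Newcombe interval of −1.79 to 8.41, which includes 0. The kept minus lost difference was −11.2 points (−20.1 to −1.78). It was 1.47 points (−9.51 to 12.2) without peaks within 1 Mb of an assembly gap of at least 50 kb, and 4.44 points without regions listed in all 4 libraries, so the lower genic share of kept peaks rested on those places. Introns held 545 lost, 38 kept and 215 new peaks, and exons held 60, 6 and 28. The new minus lost difference in the intergenic share was −4.57 points (−9.58 to 0.534), and −5.67 points (−10.9 to −0.318) away from gaps.

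New peaks lay at gene starts more often than lost ones. Promoter peaks were those that reached within 1 kb of a protein-coding gene start. This was so for 67 lost peaks, or 5.40% (4.21% to 6.81%), and for 60 new peaks, or 11.6% (8.99% to 14.7%), a difference of 6.23 points (3.38 to 9.48). Kept peaks had 5 of 118 at promoters, or 4.24% (1.39% to 9.61%). Sequence within 1 kb of these starts makes up 1.3% of the determined bases, although a peak counted when any part of it reached there. Counting kept and new peaks together, 65 promoter peaks were listed with AS-99 against 72 with DMSO, a ratio of 0.903 (0.635 to 1.28). For introns the same ratio was 0.437 (0.376 to 0.508) and for intergenic sequence 0.442 (0.383 to 0.509). Only 5 of the 72 DMSO promoter peaks were kept, so the near-equal totals came mostly from different peaks.

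**Figure D2:**
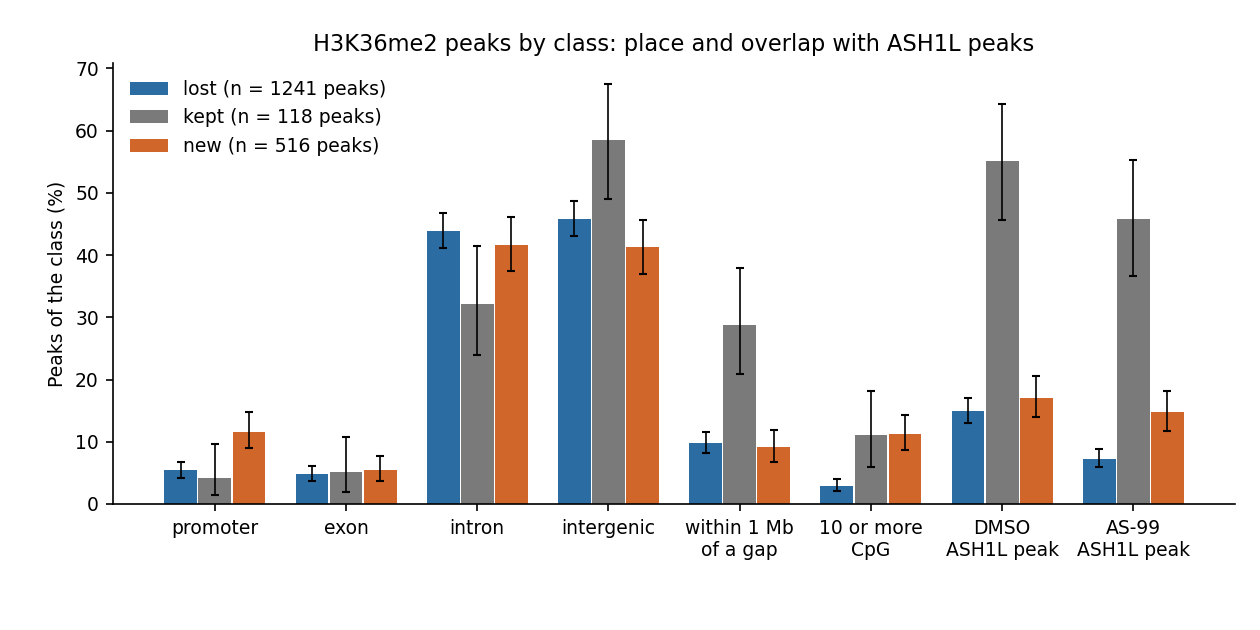
Share of lost, kept and new H3K36me2 peaks, in percent, at each place, within 1 Mb of an assembly gap, with at least 10 CpG in the 200 bp around the summit, and overlapped by an ASH1L peak of either treatment. Bars are shares and error bars exact Clopper-Pearson 95% intervals. New peaks stand above lost ones at promoters (11.6% against 5.40%). Kept peaks stand above both beside gaps (28.8%) and at ASH1L peaks (55.1% for DMSO ASH1L). Without regions listed in all 4 libraries, a removal that takes out kept peaks only, the DMSO ASH1L share of kept peaks was 25.4%.

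The sequence under new and kept peaks was more often rich in CpG than that under lost peaks. The median GC content of the 200 bp around the summit was 44.5% at lost peaks (quartiles 38% and 51%), 42.75% at kept peaks (37.5% and 53.4%) and 47% at new peaks (39% and 54.5%), against 40% in 200 bp tiles of the genome. At least 10 CpG were found at 36 of 1241 lost peaks, or 2.90% (2.04% to 3.99%), and at 58 of 516 new peaks, or 11.2% (8.65% to 14.3%), a difference of 8.34 points (5.66 to 11.5). Among kept peaks it was 13 of 118, or 11.0% (6.0% to 18.1%), a kept minus lost difference of 8.12 points (3.52 to 15.1), and 5 of 71 without regions listed in all 4 libraries, or 7.04% (2.33% to 15.7%). Without those regions the kept minus lost difference was 4.14 points (−0.001 to 12.6). Such a count was found in 1.95% of the tiles. Among promoter peaks, 21 of 67 lost peaks (31.3%, 20.6% to 43.8%) and 32 of 60 new peaks (53.3%, 40.0% to 66.3%) had it. Outside promoters it was 15 of 1174 lost peaks, or 1.28%, and 26 of 456 new peaks, or 5.70% (3.76% to 8.24%). The contrast between new and lost peaks was therefore seen both at gene starts and away from them. Kept peaks had it at 3 of 5 promoter peaks and at 10 of 113 others, or 8.85% (4.33% to 15.7%).

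The lost promoter peaks with the most fragments belonged to genes of several kinds. ARHGEF18, which encodes a guanine nucleotide exchange factor, had a lost peak at its start with a pileup of 28 fragments, 1.80 FPM. CTSZ, a lysosomal cathepsin, had 25 fragments (1.60 FPM), and SETD4, a SET domain protein, had 24 (1.54 FPM). The chemokine genes CCL23, CCL3 and CCL5, all on chromosome 17, had lost promoter peaks of 21, 20 and 18 fragments, and STING1, the receptor for cyclic dinucleotides, had 20. No ASH1L peak overlapped the lost peaks at ARHGEF18, CTSZ, SETD4, CCL23 and CCL5, while those at CCL3 and STING1 were overlapped by a DMSO ASH1L peak and by no AS-99 one. The promoter peaks named here and below were chosen after their values were seen.

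Among new promoter peaks, the highest was at MYO1F, a myosin of immune cells, with 26 fragments (1.97 FPM) and a fold enrichment of 6.95, and it was overlapped by an ASH1L peak of both treatments. FKBP2, a prolyl isomerase, had 25 fragments (1.89 FPM) without an ASH1L peak. NBPF1 had 25 as well, but this gene is 1 of a family of near-identical copies, so its reads could belong elsewhere. CCRL2, a receptor of the chemokine receptor family, and MANBA, the lysosomal beta-mannosidase, had 19 fragments each (1.44 FPM), and both were overlapped by ASH1L peaks of both treatments. CFD, which encodes complement factor D, had 15 (1.14 FPM). RUNX3, a transcription factor related to RUNX1, had 13 (0.984 FPM) without an ASH1L peak. The 5 kept promoter peaks lay at SIGLEC10, an inhibitory receptor that binds sialic acid, at WDR55, at PSMD11, a proteasome subunit, between NSA2 and GFM2, and at AL590452.1. At SIGLEC10 the pileup was 25 fragments with DMSO and 30 with AS-99, or 1.60 and 2.27 FPM.

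Along genes, new peaks were nearer to the start than lost ones. With each gene body cut into 5 equal parts, the part at the start held 150 of 644 lost genic peaks, or 23.3% (20.1% to 26.8%), and 87 of 285 new ones, or 30.5% (25.2% to 36.2%), a difference of 7.23 points (1.13 to 13.6). Without promoter peaks the shares were 19.8% and 20.6%, a difference of 0.741 points (−4.96 to 7.02), so the promoter peaks carried it. The part at the end held 117 lost peaks (18.2%) and 44 new peaks (15.4%). Kept genic peaks had 13 of 48 in the part at the start.

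Long genes held a larger share of lost than of kept peaks. Genes of 200 kb or more held 245 of 1241 lost peaks, or 19.7% (17.6% to 22.1%), 81 of 516 new peaks, or 15.7% (12.7% to 19.1%), and 9 of 118 kept peaks, or 7.63% (3.55% to 14%). Such genes cover 21.7% of the determined bases. The new minus lost difference was −4.04 points (−7.74 to −0.0455), and its interval included 0 without peaks beside gaps (−7.96 to 0.327). The kept minus lost difference was −12.1 points (−16.4 to −5.53), and −11.3 points (−16.5 to −2.83) without peaks beside gaps. Genes of 50 to 200 kb held 261 lost (21.0%), 29 kept (24.6%) and 130 new peaks (25.2%), against 17.5% of the bases. Away from gaps the kept share in these genes was 33.3% against 20.7% of lost peaks, a difference of 12.6 points (3.12 to 23.5). Genes under 50 kb held 138 lost (11.1%), 10 kept (8.47%) and 74 new peaks (14.3%), against 7.79% of the bases.

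Gene families showed few peaks of any class. Of the 566 zinc finger genes, which cover 0.794% of the bases, 8 lost (0.645%), 1 kept (0.847%) and 7 new peaks (1.36%) were found. Olfactory receptor genes, histone genes, ribosomal protein genes and the immunoglobulin and T cell receptor genes held 0 peaks. They cover 0.0927%, 0.00951%, 0.0301% and 0.011% of the bases. The exact interval for 0 of 1241 lost peaks reaches 0.297%, above each of these shares, so 0 peaks is no evidence of depletion. Protocadherin genes held 1 lost peak (0.0806%), against 0.171% of the bases. Long noncoding RNA genes, with 18.9% of the bases, held 242 lost (19.5%), 13 kept (11.0%) and 99 new peaks (19.2%). Pseudogenes held 9 lost (0.725%), 5 kept (4.24%) and 7 new peaks (1.36%), against 1.69% of the bases.

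Of 20098 protein-coding genes, 600 held the summit of a lost peak, or 2.99%, 53 of a kept peak, or 0.264%, and 293 of a new peak, or 1.46%. In all, 642 genes held a DMSO summit and 344 an AS-99 summit, a ratio of 0.536 (0.469 to 0.612). Of these, 94 held a summit with both treatments, 548 with DMSO only and 250 with AS-99 only. A gene seen with both treatments often had its peaks in different places, since 42 genes held both a lost and a new peak. More than 1 lost peak was found in 68 genes and more than 1 new peak in 8.

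RUNX1, a transcription factor of blood stem cells and myeloid maturation (ENSG00000159216, chromosome 21, 36160098 to 37376965, minus strand), was the only gene with peaks of all 3 classes. It held 5 lost intronic peaks with pileups of 26, 19, 22, 25 and 22 fragments, or 1.22 to 1.67 FPM. Its kept peak, 266.5 kb from the annotated start, had 22 fragments with DMSO and 17 with AS-99, or 1.41 and 1.29 FPM. Its new peak had 12 fragments, or 0.908 FPM, and lay 513 kb from the start, between a lost peak at 496 kb and another at 528 kb. The annotated gene spans 1217 kb, so RUNX1 is also long, and the same holds for other genes with several peaks.

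FOXN3, a forkhead transcription factor (ENSG00000053254, chromosome 14, 89591215 to 90085493), held the most lost peaks, 6, all intronic, with 15 to 19 fragments (0.963 to 1.22 FPM), and no AS-99 peak. CPQ, which encodes a carboxypeptidase (ENSG00000104324, chromosome 8, 97657470 to 98161882), held 5 lost peaks with 33, 29, 29, 22 and 37 fragments. Its kept peak had 20 fragments with DMSO and 19 with AS-99, or 1.28 and 1.44 FPM. Per filtered fragment its pileup was no lower with AS-99, while the lost peaks around it were not listed. The fold enrichment of the CPQ peaks was low for their height, between 2.99 and 4.45 at the lost ones. MGLL, monoacylglycerol lipase, held 3 lost peaks with 20, 27 and 22 fragments and a new one with 15, about 4 kb from the lost peak of 27. ADGRL3, an adhesion receptor, UNC79, a part of the NALCN channel complex, and ENSG00000250349 each held 3 lost peaks and no other.

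**Figure D3:**
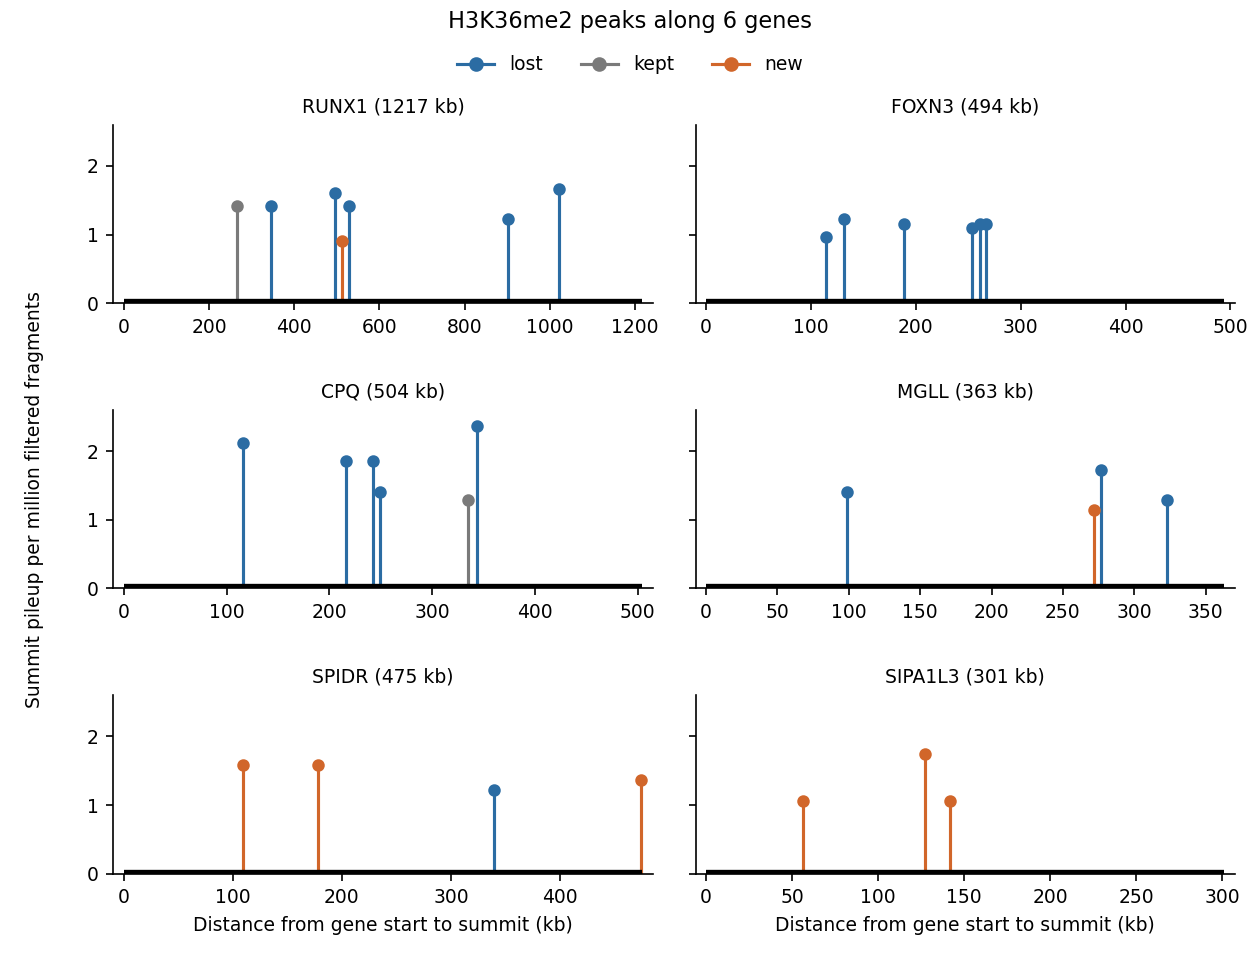
Summit pileup in FPM of each lost, kept and new H3K36me2 peak against its distance in kb from the gene start, along RUNX1, FOXN3, CPQ, MGLL, SPIDR and SIPA1L3, with the gene body as a black bar and the DMSO value shown for kept peaks. FOXN3 holds lost peaks only and SIPA1L3 new peaks only, while in RUNX1, CPQ, MGLL and SPIDR classes lie side by side.

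Several genes had more than 1 new peak. SIPA1L3, a GTPase-activating protein for Rap, held 3 new peaks with 14, 23 and 14 fragments (1.06 to 1.74 FPM) and no DMSO peak. SPIDR, a scaffold protein in DNA repair, held 3 new peaks with 21, 21 and 18 fragments and 1 lost peak with 19. XYLT1, a xylosyltransferase that starts glycosaminoglycan chains, held 2 new peaks with 12 and 13 fragments and 1 lost peak with 15. MANBA, ABCC4, an exporter of organic anions, RGL1, ANKEF1 and ZFPM2, a cofactor of GATA factors, held 2 new peaks each and no other. Among genes with both a lost and a new peak, TG, NSMCE2, FRY, ARHGAP26 and ATXN1 each held 2 lost peaks and 1 new one. In FRY the lost peaks had 14 and 25 fragments and the new peak 19. In ARHGAP26, which encodes a GTPase-activating protein, they had 20 and 17, and the new peak had 16.

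The lost peaks of highest pileup in genes, away from assembly gaps, were in ENPP2 and ATG5 with 41 fragments each (2.63 FPM). ENPP2 encodes autotaxin, the enzyme that makes lysophosphatidic acid, and ATG5 a protein needed to form autophagosomes. DEDD2, a death effector domain protein, followed with 39 fragments in an untranslated part of an exon (2.50 FPM). MS4A4A, a membrane protein of macrophages, GAB2, an adaptor in receptor tyrosine kinase signaling, and DTNB had 33 each (2.12 FPM). The ATG5, DEDD2 and MS4A4A peaks were overlapped by a DMSO ASH1L peak, and the ENPP2, GAB2 and DTNB peaks were not. At MS4A4A a new peak with 14 fragments lay about 11 kb from the lost one.

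Intergenic lost peaks reached similar heights. Beside ZEB2, a repressor of the zinc finger homeobox family, 2 lost peaks lay 180385 and 161629 bp from the gene, with 43 and 36 fragments (2.76 and 2.31 FPM). Another lay 159924 bp from ETS2, with 37 fragments (2.37 FPM), and another 3741 bp from XCR1, a chemokine receptor, with 35. The highest lost peak of all, with 49 fragments (3.14 FPM), was 1413 bp from ZNF595 on chromosome 4, and a kept peak with 52 fragments lay 9787 bp from the same gene. New peaks listed as intergenic lay 135802 bp from CALB1 with 30 fragments (2.27 FPM) and 19218 bp from NSMCE2 with 26 (1.97 FPM).

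The highest new genic peaks away from gaps were lower per fragment than the highest lost ones. The lost class holds more peaks and had a higher background. Among these highest peaks, fold enrichment reached 7.31 at the lost one in DEDD2 and 7.24 at the new one in NCKAP5L. A new peak in TG, the thyroglobulin gene, which also lies in an intron of SLA, an adaptor of lymphocyte signaling, had 27 fragments (2.04 FPM). NCKAP5L, SIPA1L3 and CRYBG1 had 23 each (1.74 FPM). MED26, a Mediator subunit, SPINT2, an inhibitor of serine proteases, DIPK2A and ST18 had 22 each (1.67 FPM). The MED26 peak lay in 3 overlapping annotated genes, so it cannot be given to 1 of them.

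Members of 4 gene lists that bear on this leukemia held few peaks, and no list is called out by these counts. Among 36 targets of MLL fusion proteins, JMJD1C (17 fragments) and GNAQ (24) held a lost peak, or 5.56% against 2.99% of all protein-coding genes. FLT3, a receptor tyrosine kinase often mutated in leukemia, held a new intronic peak with 12 fragments (0.908 FPM), or 2.78% of this list against 1.46% of all protein-coding genes. Among 30 writers, erasers and readers of H3K36 methylation, KDM2B, a demethylase of this mark, held a lost peak with 13 fragments and MSH6, a mismatch repair protein with a PWWP domain, 1 with 16. That was 6.67% of the list against 2.99% of all protein-coding genes. None held a kept or new peak, against 0.264% and 1.46% of all protein-coding genes. Of 20 members of MLL and trithorax complexes, DPY30, a core subunit, held a lost peak with 17 fragments, AFF3 held 1 with 14, and ELL, an elongation factor, held a new intronic peak with 16. The shares of this list were 10% lost and 5% new, against 2.99% and 1.46% of all protein-coding genes. The lost promoter peak of ELL shown above, with 20 fragments, lay 333 bp upstream of the gene. Of 30 myeloid maturation genes, CEBPE, a factor of granulocyte maturation, had a lost promoter peak with 17 fragments, CSF1R, the receptor of macrophage colony-stimulating factor, had a new intronic peak with 12, and RUNX1 is described above. With RUNX1, the shares of this list were 6.67% lost, 3.33% kept and 6.67% new, against 2.99%, 0.264% and 1.46% of all protein-coding genes. Each of these shares rests on 2 or fewer genes.

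At the 118 matched pairs, the median log2 ratio of pileup per filtered fragment, AS-99 over DMSO, was 0.03 with an interval over pairs of −0.08 to 0.11. Without a spike-in, this ratio cannot show a change shared by all regions. The scaled pileup was higher with AS-99 in 63 pairs and lower in 55. Past 1.5-fold, 16 pairs were higher, or 13.6%, and 6 were lower, or 5.08%. Place separated the pairs. Within 1 Mb of an assembly gap, 29 of 34 pairs were higher with AS-99, with a median of 0.53 (0.30 to 0.68), and this group held 14 of the 16 pairs past 1.5-fold higher. Several of these pairs lay close together on chromosome 16, between 46386185 and 46435543, and most of those were past 1.5-fold higher. Neighboring pairs are not independent, while the interval treats each pair as separate. At the 65 pairs away from gaps and not in regions listed in all 4 libraries, 23 were higher and 42 lower, with a median of −0.12 (−0.23 to −0.05). These pairs include only regions that passed the threshold in both libraries.

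**Figure D4:**
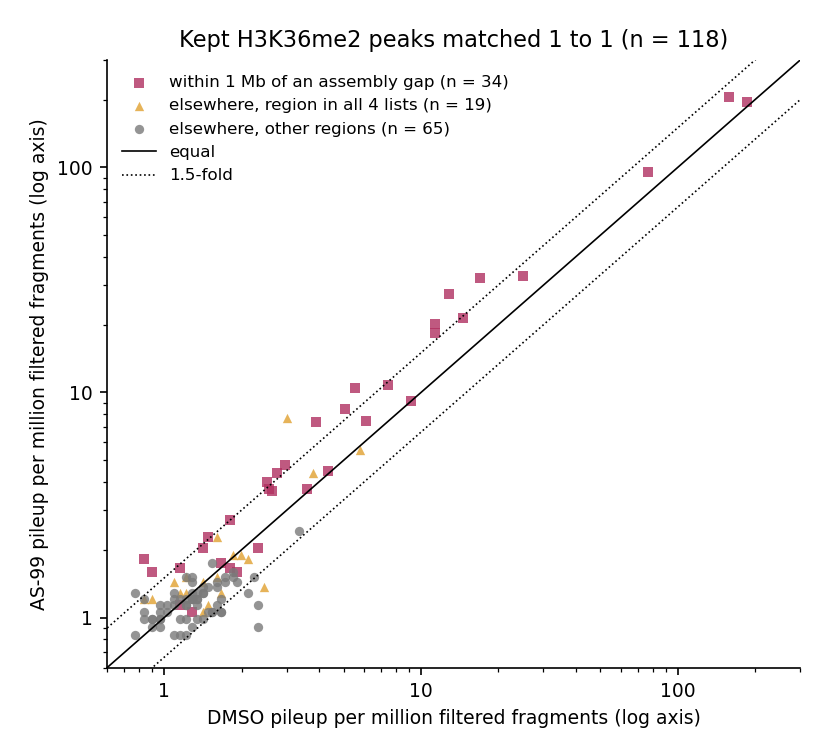
AS-99 against DMSO summit pileup in FPM at the 118 kept peaks matched 1 to 1, on log axes, with a solid line for equal values and dotted lines for 1.5-fold. Squares are the 34 pairs within 1 Mb of an assembly gap, 29 of which lie above the line, triangles the 19 other pairs in regions listed in all 4 libraries, and circles the remaining 65, of which 42 lie below it.

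Away from gaps, HFM1, a DNA helicase of meiosis (chromosome 1, intron), had 47 fragments with DMSO and 102 with AS-99, or 3.02 and 7.72 FPM, a log2 ratio of 1.36. This region was listed in all 4 libraries. An intergenic region 39473 bp from MRPL57 had 36 and 15 fragments, a log2 ratio of −1.02. EMC3, a subunit of a membrane protein insertase, had 12 and 17 fragments in an exon, a log2 ratio of 0.74. The other kept genic peaks among the highest changed less. TLR4, the receptor of lipopolysaccharide, had 25 and 18 fragments in an exon shared with ENSG00000285082 (1.60 and 1.36 FPM). GARNL3 had 27 and 19 (1.73 and 1.44 FPM), and THADA had 25 and 15 (1.60 and 1.14 FPM). MAPK6, an atypical MAP kinase, had 26 and 16 (1.67 and 1.21 FPM). MAPK6 also held 2 lost peaks with 22 and 19 fragments.

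Kept peaks stood apart by repeats. Within 1 Mb of an assembly gap lay 34 of 118 kept peaks, or 28.8% (20.8% to 37.9%), 122 of 1241 lost peaks, or 9.83% (8.23% to 11.6%), and 47 of 516 new peaks, or 9.11% (6.77% to 11.9%), against 9.83% of the determined bases. At least 8 copies of GGAAT or ATTCC in the 200 bp around the summit, counted as letters on the plus strand, were found at 11 kept peaks (9.32%, 4.75% to 16.1%), at 2 lost peaks (0.161%) and at 2 new peaks (0.388%), against 0.0275% of 200 bp tiles. In the kept peak on chromosome 16 printed above, the pileup was 228 fragments with DMSO and 282 with AS-99, or 14.6 and 21.3 FPM. All 11 such pairs were higher with AS-99, with a median log2 ratio of 0.69. They lay on chromosomes 10 and 16 only, several of them close together, so they are not independent. A self-identity of at least 50% at a shift within 2 bases of 171, the length of the alpha satellite repeat, was found at 9 kept peaks (7.63%, 3.55% to 14%), 1 lost peak and 1 new peak, against 0.196% of 1200 bp tiles. The chromosome 7 peak printed above belongs to these and had 2466 fragments with DMSO and 2722 with AS-99, or 158 and 206 FPM. Regions listed in all 4 libraries made up 47 of the 118 kept peaks, or 39.8% (30.9% to 49.3%).

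Because ASH1L deposits the mark, the classes were compared for overlap with ASH1L peaks. A DMSO ASH1L peak overlapped 186 of 1241 lost peaks, or 15% (13% to 17.1%), 88 of 516 new peaks, or 17.1% (13.9% to 20.6%), and 65 of 118 kept peaks, or 55.1% (45.7% to 64.3%). The new minus lost difference was 2.07 points (−1.59 to 6.03). An AS-99 ASH1L peak overlapped 90 lost peaks, or 7.25% (5.87% to 8.84%), 76 new peaks, or 14.7% (11.8% to 18.1%), and 54 kept peaks, or 45.8% (36.6% to 55.2%). Here the new minus lost difference was 7.48 points (4.26 to 11.0). Of the kept peaks, 47 are regions listed in all 4 libraries, which hold both ASH1L peaks by definition and can only be kept. Without them, a comparison added after the data were seen, 18 of 71 kept peaks had a DMSO ASH1L peak, or 25.4% (15.8% to 37.1%), 10.4 points more than lost peaks (1.44 to 21.7). For AS-99 ASH1L it was 7 of 71, or 9.86% (4.06% to 19.3%), a difference of 2.61 points (−2.64 to 11.8) that includes 0. The removal took out only kept peaks with both ASH1L peaks, while lost peaks with both remained. This lowers the kept shares by construction, so it cannot say whether kept peaks overlapped ASH1L more often than lost ones. With ASH1L taken from the same treatment as the H3K36me2 peak, lost and new peaks differed by −0.259 points (−3.75 to 3.55), although the DMSO ASH1L list was longer.

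At promoters, fewer lost than new peaks had an AS-99 ASH1L peak. Of 67 lost promoter peaks, 14 had a DMSO ASH1L peak (20.9%, 11.9% to 32.6%) and 2 an AS-99 ASH1L peak (2.99%, 0.364% to 10.4%). Of 60 new promoter peaks, 19 had a DMSO ASH1L peak (31.7%, 20.3% to 45.0%) and 15 an AS-99 ASH1L peak (25%, 14.7% to 37.9%). With ASH1L from the same treatment as the H3K36me2 peak, the shares were 20.9% of lost and 25% of new promoter peaks, and their intervals overlapped. Away from gaps, kept peaks had a DMSO ASH1L peak 27.4 points more often than lost ones (17.2 to 38.2), with regions listed in all 4 libraries included.

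Clustering was described by neighbors within 50 kb. Another DMSO H3K36me2 peak lay within 50 kb of 229 lost peaks, or 18.5% (16.3% to 20.7%), while 4.3% of the determined bases lie that near to a DMSO peak. Another AS-99 peak lay within 50 kb of 29 new peaks, or 5.62% (3.80% to 7.97%), and 2.1% of the bases lie that near to one. Across treatments, a DMSO peak lay within 50 kb of 67 new peaks, or 13% (10.2% to 16.2%), and an AS-99 peak within 50 kb of 81 lost peaks, or 6.53% (5.22% to 8.05%). The DMSO list is the longer one, so neighbors are more frequent in it.

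The AS-99 list was shorter than the DMSO list on each of the 23 chromosomes. The ratio of AS-99 to DMSO peaks was lowest on chromosome 14, at 0.302 (0.149 to 0.573), and highest on chromosome 16, at 0.667 (0.406 to 1.08). Every chromosome's interval included the ratio of 0.467 over all of them. Chromosome 19 had the most peaks per 10 Mb with both treatments, 13.6 with DMSO and 8.78 with AS-99, against 4.79 and 2.24 over all chromosomes. Chromosome 8 followed with 9.31 and 4.13, and the X chromosome had 0.860 and 0.529. On chromosome 8 the median background behind DMSO peaks was 4.75 fragments (4.53 to 5.08), against 3.28 (3.17 to 3.36) on chromosomes other than 8 and 19, and the fold enrichment was 4.03 against 4.48. The part of this background in the number of peaks there was not tested.

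**Figure D5:**
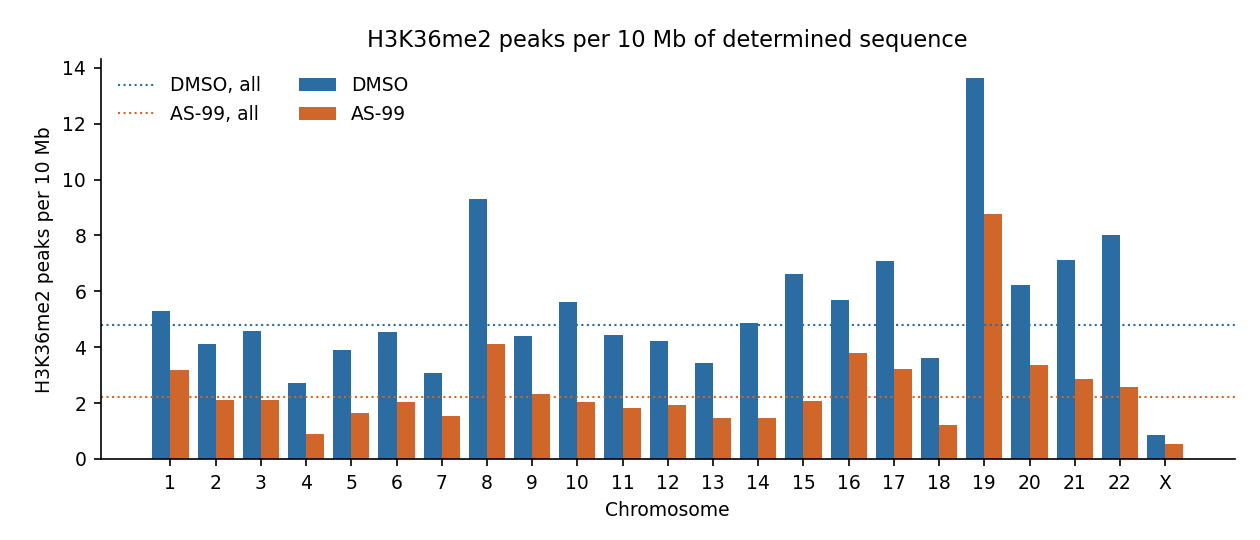
H3K36me2 peaks per 10 Mb of determined sequence on each chromosome with DMSO and with AS-99, with dotted lines for the values over all chromosomes, 4.79 and 2.24. The AS-99 bar is the lower one on every chromosome, and chromosome 19 is the highest with both treatments.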

How the data were processed

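CUT&RUN was performed with an antibody against ASH1L or H3K36me2 in cells given AS-99 or DMSO, 1 library each, grouped by the labels. The study's methods describe treatment in triplicate and merged mapped files, its reporting form 1 replicate, and a slightly higher dose than the labels, so it is not settled whether a library pools cultures. Peaks were called by the authors, per the file headers, with MACS 2.1.0.20150731 on each library in paired-end mode at a q-value of 0.01, with up to 2 duplicates per position, a local window of 10 kb and no control. The methods name other MACS settings, a choice of longer fragments and a spike-in. Reads were mapped to hg19 with Bowtie2. The deposited pileup is an unscaled signal. The deposited −log10 p-values and q-values and the fold enrichment, a ratio to background, were used as given. The other deposited columns give position, length and summit.

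Pileup was divided by fragments after filtering. No spike-in entered. Background was derived from pileup and fold enrichment, and a Poisson model with it returned the deposited −log10 p within 0.000244 where finite. The annotation was GENCODE release 44 in GRCh37 coordinates. A gene was named by pileup (8 highest lost, kept and new genic peaks over 1 Mb from a gap), by holding 3 or more lost or 2 or more new peaks (at most 10), by holding both (at most 8), or as a list member with a peak. One gene met by this rule is not reported here. The members and lists were chosen with earlier results of these data known. Shares have exact Clopper-Pearson intervals, differences of shares Newcombe intervals, count ratios exact conditional binomial intervals and medians order-statistic intervals, all at 95%. No molecular identifiers were used, so fragments may not all be separate molecules. Scripts used Python 3.11.15, SciPy 1.17.1 and pysam 0.24.0, and were tested on simulated data. Alternatives in overlap, threshold, gap distance, calling floor, shared regions, annotation and scale were tried. Mitochondrial, Y and unplaced peaks were left out, 16 with DMSO and 18 with AS-99.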

Additional observations from a re-analysis of the deposited data

How the results depend on the processing

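Of 50 values under 9 alternatives, 41 remained inside the reported interval. The kept minus lost genic difference turned from −11.2 to 1.47 points without gap-near peaks and to 4.44 points without regions in all 4 lists, and was −32.5 points when only peaks with −log10 p from 10 upward were used. The kept share, 8.68% as reported, was 7.21% with a reciprocal overlap of 50%, 11.4% at the stricter threshold, 6.98% without gap-near peaks and 5.41% without regions in all 4 lists. The log2 ratio at kept peaks was 0.30 at that threshold and −0.11 without regions in all 4 lists. In an alternative added after the data were seen, leaving out regions in all 4 lists moved the kept minus lost difference from 40.1 to 10.4 points for DMSO ASH1L overlap and from 38.5 to 2.61 points for AS-99 ASH1L overlap. The cause was not tested. A reciprocal overlap of 50% is met by fewer overlaps. Removing regions in all 4 lists takes out kept peaks only, and each removed peak overlaps ASH1L peaks of both treatments. The genic, promoter, GC and same-treatment ASH1L differences between new and lost peaks and the ratio of genes with a peak stayed within their intervals under each alternative run. No paired analysis was possible because a treatment had a single library and the result comes from no test. At 15584143 and 13208636 filtered fragments, the median lost peak rests on 18 fragments and the median new peak on 14. With the calling floor of the AS-99 list applied at its depth, the kept share was 9.0%.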
